A study of Mus musculus with 48 samples.

Results

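H3K4me3, the trimethyl mark on lysine 4 of histone H3, was compared by ChIP-seq between mouse embryonic stem cells that lack the transcription factor ZBTB11 (Zbtb11KO) and cells that lack the related factor ZFP131 (Zfp131KO). The comparison rests on 2 libraries per knockout, 4 of the 48 libraries of the study, and was made directly between the knockouts, with no wildtype value in the ratio. The compared features were stretches of the genome in which the H3K4me3 domains of both knockouts were joined where they overlapped. The ratio was the log2 of the Zbtb11KO reads over the Zfp131KO reads of a stretch, centred on the median over all such stretches, so that 0 is the typical stretch and a positive value means more H3K4me3 in Zbtb11KO.

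The study profiled 9 chromatin and transcription targets in 24 groups of 2 libraries. Zbtb11KO cells are the line Ainv15(iZbtb11-HA Zbtb11KO) and Zfp131KO cells the line Ainv15(iZfp131-HA Zfp131KO); each carries an HA-tagged copy of its deleted factor under doxycycline control. Both lines were grown for 3 days without doxycycline in medium with the cytokine LIF and without the kinase inhibitor pair called 2i. Cells lacking both factors (doubleKO, with inducible iZbtb11-HA and iZfp131-V5) and wildtype cells (WT, the line Ainv15(iCre)) were profiled for H3K4me3 in the same medium and are given beside the knockouts. Binding of each factor was measured by HA ChIP in the knockout line with the copy induced for 3 days, in medium with 2i and LIF, so binding and H3K4me3 come from different cultures. Each genotype is 1 line, so a line difference and the effect of a knockout cannot be told apart. The labels do not say that the 2 libraries of a group were separate cultures, and the deposited lists pool them, so there is 1 value per group and no spread between libraries. No test between the knockouts was made: the authors' deposited tables hold a standard error for each knockout against the same WT libraries, and none for 1 knockout against the other. The intervals given below are exact 95% intervals that cover counting error only. A mark lost from every cell and a mark lost from some cells cannot be told apart in such bulk samples.

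H3K4me3 is laid down around transcription start sites by the SETD1 and MLL methyltransferase complexes and is found at active promoters and, together with the Polycomb mark H3K27me3, at many silent developmental promoters of embryonic stem cells. ZBTB11 and ZFP131 are zinc finger proteins with a BTB domain, a protein interaction fold shared by many transcriptional regulators. The study concerns their part in keeping stem cells pluripotent through RNA polymerase II pausing, in which the NELF complex takes part. Of 28 genes known for pluripotency, 27 had an H3K4me3 stretch at the promoter, among them Pou5f1 with 2910 reads in Zbtb11KO, 3670 in Zfp131KO, 6477 in doubleKO and 4122 in WT. Of 14 fibroblast genes 9 had a stretch, a share near that of all protein-coding genes, where 14316 of 21883 had one. The collagen gene Col3a1 and the matrix gene Postn had none in either knockout list, while Vim, Col1a2, Prrx1 and Thy1 had one in both. The count for this list therefore does not set it apart from genes at large.

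The promoters below were picked for a match to a word described here, among those with large ratios: 4 promoters bound by ZBTB11 with lower H3K4me3 in Zbtb11KO and 2 bound by ZFP131 with higher H3K4me3 in Zbtb11KO. They are RefSeq promoters of GRCm38.p6, the assembly of mm10, from 250 bases before to 50 bases after the gene start, written along the gene. Capitals mark matches, on either strand, to 8-letter words that were over-represented at bound promoters. These are ACCGGAAG and AGGTTCCG for ZBTB11 and CGTCATCA and TGACGTAA for ZFP131, chosen after these data had been seen. Other promoters with large ratios hold none of the 4 words and are not printed, among them Wdr83, Slc4a1ap, Dus1l, Maip1 and Mrps31 on the lower side and Rmdn3, Pphln1 and Gpam on the higher side.
Mkrn3, chr7:62420104-62420403, minus strand: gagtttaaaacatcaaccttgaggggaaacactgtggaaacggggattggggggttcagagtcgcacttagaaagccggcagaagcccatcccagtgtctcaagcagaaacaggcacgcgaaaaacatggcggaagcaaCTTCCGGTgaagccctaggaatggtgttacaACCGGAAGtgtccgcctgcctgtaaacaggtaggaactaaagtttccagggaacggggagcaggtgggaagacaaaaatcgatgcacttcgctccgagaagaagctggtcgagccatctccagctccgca
Alg3, chr16:20610712-20611011, minus strand: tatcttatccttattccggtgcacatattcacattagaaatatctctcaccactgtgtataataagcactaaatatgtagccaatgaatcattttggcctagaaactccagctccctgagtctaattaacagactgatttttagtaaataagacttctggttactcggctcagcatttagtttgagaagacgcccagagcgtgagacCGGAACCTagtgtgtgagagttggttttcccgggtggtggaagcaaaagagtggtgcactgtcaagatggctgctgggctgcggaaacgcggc
Mrpl3, chr9:105053018-105053317, plus strand: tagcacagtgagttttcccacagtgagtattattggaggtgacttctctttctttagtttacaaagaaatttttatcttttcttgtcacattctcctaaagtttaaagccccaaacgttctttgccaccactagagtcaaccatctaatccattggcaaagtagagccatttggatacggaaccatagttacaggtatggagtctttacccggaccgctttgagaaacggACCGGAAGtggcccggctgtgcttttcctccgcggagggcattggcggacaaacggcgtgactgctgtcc
Ndufc2, chr7:97399753-97400052, plus strand: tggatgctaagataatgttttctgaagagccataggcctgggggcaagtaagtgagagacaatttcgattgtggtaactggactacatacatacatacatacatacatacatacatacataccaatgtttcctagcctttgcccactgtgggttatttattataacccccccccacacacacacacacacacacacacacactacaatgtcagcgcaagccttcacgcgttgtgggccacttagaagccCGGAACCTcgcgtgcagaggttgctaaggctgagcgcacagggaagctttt
Exosc7, chr9:123112981-123113280, plus strand: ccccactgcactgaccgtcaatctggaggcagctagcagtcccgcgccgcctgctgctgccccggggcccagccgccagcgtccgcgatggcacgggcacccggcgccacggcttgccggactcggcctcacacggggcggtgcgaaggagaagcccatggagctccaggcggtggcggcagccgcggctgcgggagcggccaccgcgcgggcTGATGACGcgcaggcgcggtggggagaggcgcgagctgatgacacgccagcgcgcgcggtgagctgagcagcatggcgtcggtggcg
Ddx51, chr5:110653201-110653500, plus strand: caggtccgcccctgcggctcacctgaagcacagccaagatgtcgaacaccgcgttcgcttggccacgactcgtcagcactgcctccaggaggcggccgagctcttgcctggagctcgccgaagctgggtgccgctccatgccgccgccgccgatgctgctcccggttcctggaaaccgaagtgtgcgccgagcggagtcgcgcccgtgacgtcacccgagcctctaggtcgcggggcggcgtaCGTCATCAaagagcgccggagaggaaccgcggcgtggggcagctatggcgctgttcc

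The Mkrn3 promoter holds the word ACCGGAAG on both strands, the Mrpl3 promoter holds it once, and the promoters of Alg3 and Ndufc2 hold AGGTTCCG as its reverse complement. Chromosome 18 was left out of all word counts. The word ACCGGAAG stood in 39 of the 200 promoters with the most ZBTB11 reads (19.5%), in 1.07% of promoters without a ZBTB11 event and in 2.30% of all 32851 RefSeq promoters of the other chromosomes. AGGTTCCG stood in 27 of the 200 (13.5%), in 0.745% of those without an event and in 0.846% of all. At ZFP131 the word CGTCATCA, present in Exosc7 as TGATGACG and in Ddx51, stood in 53 of 200 promoters (26.5%), in 0.336% of those without a ZFP131 event and in 0.794% of all. TGACGTAA stood in 16 of 200 (8.00%), against 0.540% without an event and 0.499% of all. Each word was picked for a high ratio of its share in the 200 promoters to its share without an event. That contrast therefore follows from the choice and is no test. Each match is a description of letters in the window and not a shown binding site. The first word of each factor shares no run of 6 letters with the second word of the same factor.

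The Zbtb11KO list held 46608 domains with 28319335 reads over 28.8 Mb, and the Zfp131KO list held 44739 domains with 32341055 reads over 28.8 Mb. That is 984 reads per kb of listed domain in Zbtb11KO, 1124 in Zfp131KO, 1560 in doubleKO and 1082 in WT. The doubleKO list held 59546938 reads and the WT list 35134387. Reads of a promoter are given below as listed, without scaling for depth, so equal doubleKO and WT reads are not equal levels. The domains joined into 56575 stretches, of which 28960 held a domain of both knockouts, and these held 99.0% of the Zbtb11KO and 99.1% of the Zfp131KO reads. Of the shared stretches 22837 had at least 100 reads in both lists together, and their median log2 ratio before centring was -0.28.

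Most promoters carried about the same H3K4me3 in both knockouts. Of 12377 promoter stretches 80.6% lay within 1.5-fold after centring, and their central 90% ran from a log2 ratio of -0.71 to 0.87. A 2-fold difference was used as the call. By it 418 promoter stretches were higher in Zbtb11KO (3.38%) and 327 were lower (2.64%), while over all 22837 stretches, promoters or not, 1709 (7.48%) were higher and 1660 (7.27%) lower. The values closest to the threshold were log2 ratios of 1.0006 inside and 0.998 outside on the higher side, and -1.001 inside and -0.993 outside on the lower side.

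Large ratios were most frequent where H3K4me3 was sparse. In the tenth of stretches with the fewest reads per kb, 60.4% passed 2-fold, and in the tenth with the most, 1.93% did. The 327 lower promoters had short domains in Zbtb11KO, with a median listed length of 404 bp, against 903 bp in Zfp131KO, whereas the 418 higher promoters had a median of 1212 bp in Zbtb11KO and 1039 bp in Zfp131KO. Counted as reads per kb of listed domain in place of reads, 227 promoters were higher in Zbtb11KO (1.83%) and 86 were lower (0.695%). Read through genes, 438 of 13585 protein-coding genes were higher (3.22%) and 347 were lower (2.55%). Well-marked genes were the 7135 whose promoter stretch averaged at least 1807 reads over the 2 knockouts, the median of promoter stretches. A gene with few reads in 1 knockout can be among them. Of these genes 118 were higher (1.65%) and 33 were lower (0.463%).

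**Figure D1:**
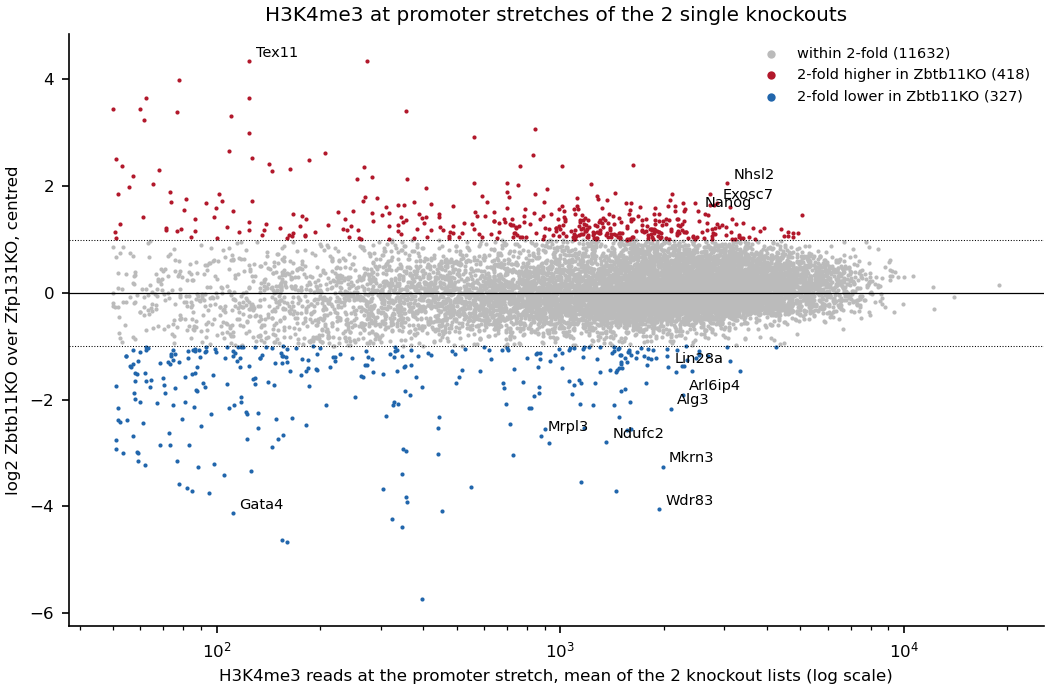
Each point is 1 of 12377 promoter stretches, with the mean H3K4me3 reads of the 2 knockout lists on a log axis and the centred log2 ratio of Zbtb11KO over Zfp131KO on the vertical axis; dotted lines mark 2-fold. The 418 higher (red) and 327 lower (blue) stretches spread widest at few reads. Below 0 the largest ratios among promoters at or above the median of 1807 reads are those of Wdr83, Mkrn3 and Alg3, which lie a little above that median.

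The promoters of the deleted genes stayed marked. At Zbtb11 the stretch had 7092 reads in Zbtb11KO, 5608 in Zfp131KO, 10283 in doubleKO and 6094 in WT, a log2 ratio of 0.62 between the single knockouts (95% interval 0.57 to 0.67). Zfp131 had 1867 reads in Zbtb11KO, 2247 in Zfp131KO, 4131 in doubleKO and 2708 in WT, a log2 ratio of 0.02 (-0.07 to 0.11). Promoter signal does not check a deletion in the coding sequence. The Zbtb11 stretch itself held 3193 reads of ZBTB11 binding.

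Among well-marked genes, those with the largest deficit in Zbtb11KO were mostly bound by ZBTB11. At the shared promoter of Wdr83, which encodes a signalling scaffold, and Wdr83os, an endoplasmic reticulum protein (chr8:85079854-85081950), there were 182 H3K4me3 reads in Zbtb11KO over 669 bp of listed domain and 3689 reads in Zfp131KO over 2097 bp. WT had 3963 reads there and doubleKO 622, so the pair of genotypes without ZBTB11 were low and the pair with it were high. The log2 ratio was -4.06 (-4.28 to -3.84), reads per listed kb were 272 in Zbtb11KO and 1759 in Zfp131KO, and ZBTB11 binding reads numbered 3784. The Polycomb mark H3K27me3 was listed there with 494 reads in Zbtb11KO and with none in Zfp131KO or WT.

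Mkrn3, an imprinted gene for a ubiquitin ligase (chr7:62418682-62420525), had 315 reads over 870 bp in Zbtb11KO, 3661 over 1844 bp in Zfp131KO, 974 in doubleKO and 2308 in WT. Its log2 ratio was -3.26 (-3.43 to -3.09), with 3216 ZBTB11 reads, and 578 H3K27me3 reads were listed in Zbtb11KO and none in Zfp131KO. At Alg3, a mannosyltransferase gene of N-glycan assembly that shares its promoter with the methyltransferase gene Eef1akmt4 (chr16:20609970-20612421), there were 648 reads over 1380 bp in Zbtb11KO, 3542 over 2452 bp in Zfp131KO, 823 in doubleKO and 3902 in WT. In each of these promoters doubleKO was on the side of Zbtb11KO and WT on the side of Zfp131KO. The Alg3 log2 ratio was -2.17 (-2.29 to -2.05), and this promoter had 4332 ZBTB11 reads.

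The next promoters in order had smaller ratios. Arl6ip4 had 817 reads in Zbtb11KO, 3727 in Zfp131KO, 2389 in doubleKO and 3197 in WT (log2 -1.91), with no ZBTB11 event and 71.4 reads of ZFP131. The promoter shared by Slc4a1ap and Supt7l, a gene for a subunit of the SAGA coactivator, had 983 reads in Zbtb11KO, 3355 in Zfp131KO, 3263 in doubleKO and 3468 in WT (log2 -1.49). Man2c1, which encodes a cytosolic alpha-mannosidase, had 1104 in Zbtb11KO, 3718 in Zfp131KO, 3428 in doubleKO and 3336 in WT (log2 -1.47), with 4912 ZBTB11 reads. At these last promoters the raw doubleKO reads lay near those of WT, but the doubleKO list holds 59546938 reads, against 35134387 in WT. Likewise bound and lower were the promoter of the mitochondrial ribosomal protein gene Mrpl13 and the replication gene Mtbp (1089 reads in Zbtb11KO, 3432 in Zfp131KO, log2 -1.37), Dus1l, a tRNA dihydrouridine synthase gene (1103 and 3472, log2 -1.37), and Maip1 with Tyw5 (1579 and 4643, log2 -1.27).

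The remaining 3 of the 12 had no ZBTB11 event or a weak one. Lin28a, whose RNA-binding product blocks maturation of let-7 microRNAs, had 983 reads in Zbtb11KO, 3145 in Zfp131KO, 5870 in doubleKO and 3018 in WT, a log2 ratio of -1.39 (-1.50 to -1.29), with no event of either factor. The stress-response gene Gadd45g had 1534 reads in Zbtb11KO, 5137 in Zfp131KO, 11284 in doubleKO and 1971 in WT (log2 -1.46), with 82.4 ZBTB11 reads. Here Zbtb11KO was near WT and it was Zfp131KO and doubleKO that stood high. Ccn1, which encodes a matrix-associated signalling protein, had 1197 reads in Zbtb11KO, 3488 in Zfp131KO, 6758 in doubleKO and 2692 in WT (log2 -1.26), with 50.0 ZBTB11 and 164 ZFP131 reads.

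The 12 well-marked genes with the largest excess in Zbtb11KO were of mixed binding: ZFP131 bound 4 of these promoters with more than 1000 reads. At the promoter of Exosc7, a subunit gene of the RNA exosome, and of the palmitoyltransferase gene Zdhhc3 (chr9:123112088-123114160), there were 4135 reads over 2073 bp in Zbtb11KO, 1566 over 1437 bp in Zfp131KO, 2295 in doubleKO and 4939 in WT. Reads per listed kb were 1995 in Zbtb11KO and 1090 in Zfp131KO. The log2 ratio was 1.68 (1.60 to 1.77), with 1915 ZFP131 and 159 ZBTB11 binding reads. Zbtb11KO and WT were high, and Zfp131KO and doubleKO were low. H3K27me3 was listed with no reads in Zbtb11KO and 490 in Zfp131KO, H3K27ac with 440 in Zbtb11KO and 17 in Zfp131KO, and NELF with 1128 in Zbtb11KO and 337 in Zfp131KO.

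Rmdn3, which encodes a tether between the endoplasmic reticulum and mitochondria, had 3312 H3K4me3 reads in Zbtb11KO, 1246 in Zfp131KO, 2294 in doubleKO and 4141 in WT (log2 1.69, with 2092 ZFP131 reads). H3K27me3 there was listed in Zfp131KO alone of the single knockouts and WT, with 558 reads. The promoter of Pphln1, a component of the HUSH silencing complex, and of the minor spliceosome gene Zcrb1 had 4070 reads in Zbtb11KO, 1367 in Zfp131KO, 2481 in doubleKO and 3448 in WT (log2 1.86, with 1231 ZFP131 reads). Gpam, the mitochondrial glycerol-phosphate acyltransferase gene, had 3098 in Zbtb11KO, 1227 in Zfp131KO, 2835 in doubleKO and 3060 in WT (log2 1.62, with 1188 ZFP131 reads). The doubleKO reads here are not scaled for the larger doubleKO list. Centred over WT, Rmdn3 had a log2 ratio of 0.08 in Zbtb11KO and -1.65 in Zfp131KO, Pphln1 0.64 and -1.25, and Gpam 0.42 and -1.23, so at each the larger distance from WT was that of Zfp131KO. The authors' deposited table of Zbtb11KO gave larger values there, 1.14 for Rmdn3 (SE 0.10), 3.04 for Pphln1 (SE 0.08) and 1.90 for Gpam (SE 0.11), and that of Zfp131KO gave -1.51, -1.04 and -1.0.

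At the remaining promoters of the 12 other than Tdgf1, Zbtb11KO stood above WT. Nhsl2 on chromosome X had 4730 reads in Zbtb11KO, 1382 in Zfp131KO, 2958 in doubleKO and 1816 in WT, a log2 ratio of 2.06 (1.97 to 2.15). Nono, an X-linked gene for an RNA-binding protein of paraspeckles, had 4463 in Zbtb11KO, 1775 in Zfp131KO, 3658 in doubleKO and 2715 in WT (log2 1.61). The doubleKO reads of Nhsl2 and Nono are raw, from a list of 59546938 reads against 35134387 in WT. Nup62cl, also on chromosome X, had 3160 in Zbtb11KO and 1059 in Zfp131KO (log2 1.86). The phospholipase D gene Pld2 (3056 and 1111 reads, log2 1.74), the receptor phosphatase gene Ptpru (3589 and 1354, log2 1.69), D430041D05Rik (3925 and 1521, log2 1.65) and Clcf1, a cytokine gene (4032 and 1567, log2 1.65), had at most 83.9 binding reads of either factor. Tdgf1, which encodes the Nodal co-receptor Cripto, had 2957 reads in Zbtb11KO, 1167 in Zfp131KO, 3412 in doubleKO and 4551 in WT (log2 1.62), with no event of either factor; there all 3 knockout genotypes had fewer reads than WT.

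**Figure D2:**
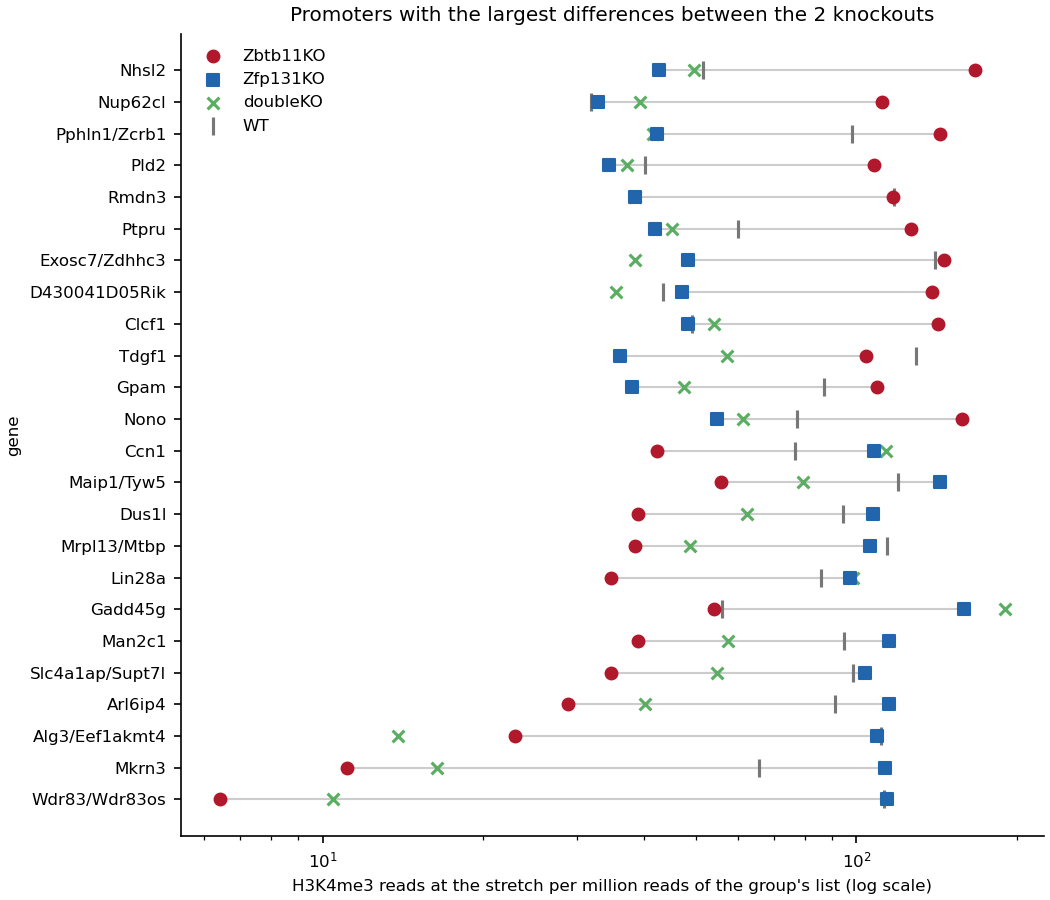
H3K4me3 reads at the promoter stretch in CPM of all reads of the group's own list (log axis) for the 12 well-marked promoters with the largest and the 12 with the smallest ratio, 1 pooled value per group: Zbtb11KO circles, Zfp131KO squares, doubleKO crosses, WT bars. At Wdr83, Mkrn3 and Alg3 Zbtb11KO and doubleKO lie together on the left, and at Exosc7 and Rmdn3 Zbtb11KO and WT lie together on the right.

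As reads per kb of listed domain, 24 named genes past 2-fold by reads lay within it. Among the 12 in each direction these were Gadd45g with a log2 ratio of -0.92 and Ccn1 with -0.62, and among the most bound Zfp580 with -0.78 and Ddx51 and Noc4l with 0.81. Among list genes, those higher by reads were Tex11 (0.64 per kb), Cdx4 (0.47), Gata2 (0.94), Pax6 (0.12), Nkx2-2 (0.89), Nanog (0.93), Dppa2 (0.82), Hoxc9 (0.68), Hoxa3 (0.87) and Rps4x (0.72). Those lower by reads were Gata4 (0.08 per kb), Krt7 (-0.39), Fas (-0.42), Magel2 (-0.40), Wnt3 (-0.49), Wnt8a (-0.86), Tubb3 (-0.83), Neurod1 (-0.85) and Mrpl1 (-0.90). Wdr83 had -2.45 on that scale, Mkrn3 -2.21, Alg3 -1.38 and Exosc7 1.11, and stayed past 2-fold.

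Set against WT, Zbtb11KO had the larger median distance in both directions. The promoters were chosen by the ratio between the knockouts, and that choice bears on the signs and sizes below. Of the 416 higher promoters with a WT value, Zbtb11KO had a median centred log2 ratio over WT of 1.01 and Zfp131KO of -0.32. Of these, 212 were at least 2-fold above WT in Zbtb11KO, where 5.04% of 12350 promoters were, and 99 were at least 2-fold below WT in Zfp131KO, where 2.91% of all were. Of the 318 lower promoters, Zbtb11KO had a median of -1.14 and Zfp131KO of 0.27. There 181 were 2-fold below WT in Zbtb11KO (3.35% of all promoters) and 64 were 2-fold above WT in Zfp131KO (2.06% of all). The doubleKO medians were -0.21 for the higher and -0.31 for the lower promoters. Both knockouts were set against the same WT libraries, so these ratios are not independent of each other.

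The authors' deposited tables give each knockout against WT per region with a DESeq2 standard error. In the authors' deposited table Wdr83 had a log2 fold change of -3.82 in Zbtb11KO (SE 0.23, DESeq2 adjusted p = 1.14e-58), and in that of Zfp131KO 0.24 (SE 0.10, DESeq2 adjusted p = 0.0626). For Alg3 the authors' deposited table gave -2.87 in Zbtb11KO (SE 0.20, DESeq2 adjusted p = 9.97e-48) and 0.23 in Zfp131KO (SE 0.14, DESeq2 adjusted p = 0.204). For Exosc7 the authors' deposited table gave 1.03 in Zbtb11KO (SE 0.10, DESeq2 adjusted p = 8.49e-25) and -1.44 in Zfp131KO (SE 0.14, DESeq2 adjusted p = 1.02e-22). For Ddx51 the authors' deposited table gave 0.30 in Zbtb11KO (SE 0.10, DESeq2 adjusted p = 0.0127) and -1.33 in Zfp131KO (SE 0.11, DESeq2 adjusted p = 2.78e-29). The values of the authors' deposited table of Zbtb11KO moved with the level of the mark: their median was -0.44 in the eighth of promoters with the fewest WT reads and 0.66 in the eighth with the most, where listed reads gave uncentred medians of -0.59 and -0.44. In the authors' deposited table of Zfp131KO the same medians were 0.16 and 0.19, where listed reads gave -0.13 and -0.17. A positive value of the Zbtb11KO table at a strongly marked promoter, as at Exosc7, is therefore to be read against that shift.

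Promoters bound by a factor, taken as a whole, differed little between the knockouts. The median log2 ratio was 0.08 for 1690 promoters bound by both factors within 500 bp (56 higher, 15 lower), -0.01 for 5653 bound by ZBTB11 alone (121 higher, 111 lower), 0.11 for 345 bound by ZFP131 alone (23 higher, 1 lower) and -0.04 for 4689 bound by neither (218 higher, 200 lower). Against the background of 3.38% higher and 2.64% lower, promoters of ZFP131 alone had 6.67% higher and 0.290% lower.

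Strong binding went with larger differences. The 50 promoters with the most ZBTB11 reads (3474 to 5295) had a median log2 ratio of -0.40, with 13 lower and none higher, and 37 of the 50 lay below 0. The next 150 (2720 to 3453 reads) had a median of -0.25 with 35 lower and none higher, and 113 lay below 0. Ranks 201 to 500 had a median of -0.15 with 23 lower and none higher, and ranks 501 to 1000 of -0.06 with 4 higher and 3 lower. The 5034 promoters with no ZBTB11 event had a median of -0.03. Thus 71 of the 318 lower promoters with a WT value (22.3%) and none of the 416 higher ones lay in the 500 with the most ZBTB11 reads, which make up 4.05% of promoters.

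At ZFP131 the direction was the other way. The 50 promoters with the most ZFP131 reads (2339 to 3403) had a median of 0.25, with 5 higher and none lower, and 39 of the 50 lay above 0. The next 150 (1613 to 2335 reads) had 0.25, with 20 higher and none lower, and 113 lay above 0. Ranks 201 to 500 had 0.10 with 16 higher and none lower, and ranks 501 to 1000 had -0.03 with 7 in each direction. The weakest group, ranks 1001 to 2035, had 0.11 with 31 higher and 9 lower, so the medians were not graded throughout. The 10342 promoters with no ZFP131 event had a median of -0.02. In all 41 of the 416 higher promoters (9.86%) and none of the 318 lower ones lay in the 500 with the most ZFP131 reads. As reads per kb of listed domain, relative to all promoters, the first 3 rank groups stood at -0.51, -0.38 and -0.20 for ZBTB11, but at 0.05, 0.07 and -0.04 for ZFP131. On that scale 1, 7 and 7 promoters of the ZFP131 groups were 2-fold higher and none was lower, so single promoters differed where the medians were near 0. Of the first 2 ZFP131 groups, 44 of 50 and 99 of 150 promoters also held a ZBTB11 event, and by reads the 6 and 51 without one had medians of 0.0164 and 0.40.

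Over WT, the 50 strongest ZBTB11 promoters had centred medians of -0.44 in Zbtb11KO, -0.01 in Zfp131KO and -0.31 in doubleKO, where 14, 0 and 11 promoters were 2-fold below WT. The background of 2-fold lower promoters in doubleKO was 5.26%. The 50 strongest ZFP131 promoters had -0.17 in Zbtb11KO, -0.37 in Zfp131KO and -0.36 in doubleKO, where 0, 5 and 6 were 2-fold below WT. At ranks 51 to 200 of ZFP131 the counts were 0 in Zbtb11KO, 27 in Zfp131KO and 29 in doubleKO. At ranks 51 to 200 of ZBTB11 they were 32 in Zbtb11KO, 1 in Zfp131KO and 28 in doubleKO.

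**Figure D3:**
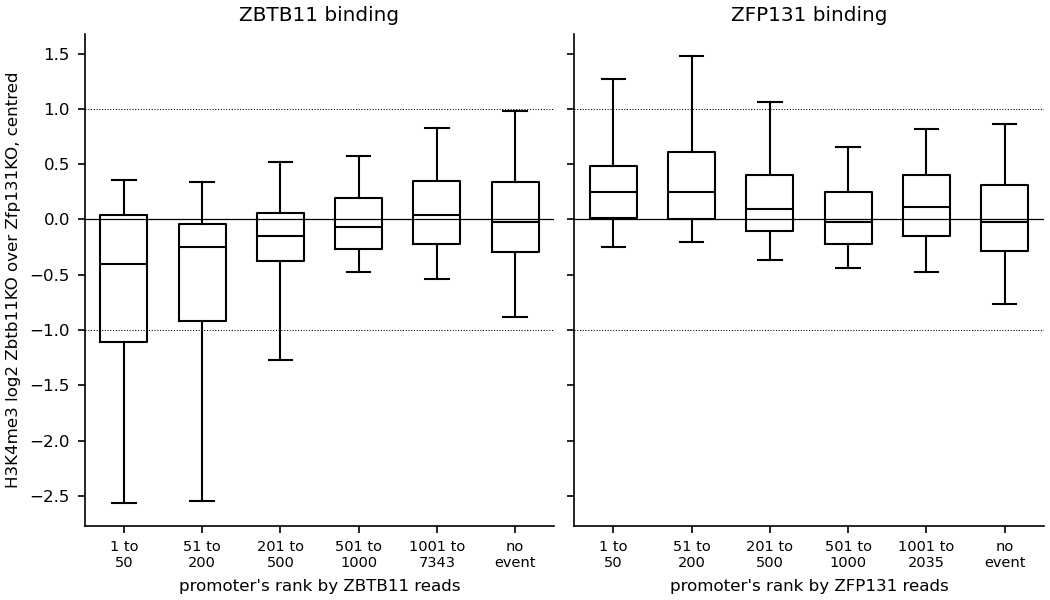
Centred log2 ratio of H3K4me3 in Zbtb11KO over Zfp131KO for promoters ranked by the reads of ZBTB11 (left) or ZFP131 (right) binding, with promoters without an event at the far right of each panel. Boxes span the quartiles with the median, whiskers the 5th to 95th percentile of promoters. Medians were -0.40 for the 50 strongest ZBTB11 promoters and 0.25 for the 50 strongest ZFP131 promoters, and were nearer to 0 by ranks 501 to 1000. The weakest ZFP131 group, ranks 1001 to 2035, stood at 0.11, so the ZFP131 medians were not graded throughout.

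The promoters most strongly bound did not all differ. Zfp580, a zinc finger gene with the most ZBTB11 reads at its promoter (5295), had 589 H3K4me3 reads in Zbtb11KO, 2499 in Zfp131KO, 664 in doubleKO and 1949 in WT (log2 -1.80). Pfkm and Senp1, genes of muscle phosphofructokinase and of a SUMO protease, share a promoter with 4900 ZBTB11 reads that had 3338 reads in Zbtb11KO and 3360 in Zfp131KO (log2 0.27). Zfp646 with Zfp668 (4730 ZBTB11 reads) had a log2 ratio of -0.14, 1110038F14Rik (4589) of -0.52 and Cfap298 (4456) of -0.79. Thus of the 6 promoters with the most ZBTB11 reads, Zfp580 and Man2c1 were called and 4 were not.

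On the ZFP131 side, Ddx51, an RNA helicase gene, and Noc4l, a ribosome biogenesis gene, share a promoter (chr5:110652527-110654575) with 3206 ZFP131 reads. It had 4323 H3K4me3 reads over 2049 bp in Zbtb11KO, 2011 over 1411 bp in Zfp131KO, 3548 in doubleKO and 5708 in WT, a log2 ratio of 1.39 (1.31 to 1.46). H3K27me3 was listed with 1062 reads in Zfp131KO and with none in Zbtb11KO or WT. Thoc1, a THO mRNA export complex gene with the most ZFP131 reads (3403), had 2984 reads in Zbtb11KO and 3487 in Zfp131KO (log2 0.06), and 244 H3K27me3 reads in Zfp131KO alone of the single knockouts and WT. Larp7, a 7SK ribonucleoprotein gene that shares its promoter with Zgrf1 (log2 0.01), the proteasome activator gene Psme3 (0.84), the phosphatase subunit gene Ppp4r3a (0.09) and Ccdc124 (0.24) were not called.

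Taken gene by gene, the 71 lower promoters among the 500 strongest ZBTB11 ones had a median of 532 H3K4me3 reads in Zbtb11KO, 2243 in Zfp131KO, 1372 in doubleKO and 2235 in WT. Centred over WT, 71 were below 0 in Zbtb11KO and 30 in Zfp131KO, counts that the choice of lower promoters bears on, and 12 also held a ZFP131 event, which 16.4% of all promoters did. H3K27me3 was listed at 39 of them in Zbtb11KO and at 5 in Zfp131KO, where 35.7% and 37.7% of all promoters had it, and H3K27ac at 33 in Zbtb11KO and at 67 in Zfp131KO, where 62.8% and 65.4% of all had it. By listed reads without centring, an unlisted event counting as none, NELF was lower in Zbtb11KO than in Zfp131KO at 70. The median uncentred NELF log2 ratio over stretches with a ratio was -0.44. Lower NELF reads in Zbtb11KO were thus common, and the share over all promoters was not counted. Examples, named after their values were seen, were Psmg3, a proteasome assembly gene (170 reads in Zbtb11KO, 2730 in Zfp131KO, 631 in doubleKO, 2397 in WT), Mnat1, a gene of the CDK-activating kinase in TFIIH (68 and 1034 in the single knockouts), and Zmpste24, the prelamin A protease gene (151 and 2152). The ciliary genes Ttc26 (42 and 864) and Bbs1 (68 and 630), the complex I assembly gene Ndufaf1 (251 and 1371) and Sec13, a gene of COPII vesicles and nuclear pores (721 and 2839), were also among them.

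The 41 higher promoters among the 500 strongest ZFP131 ones had a median of 1873 reads in Zbtb11KO, 913 in Zfp131KO, 1555 in doubleKO and 2761 in WT. Centred over WT, 24 were below 0 in Zbtb11KO and 41 in Zfp131KO, again counts that the choice bears on, and 23 also held a ZBTB11 event, which 59.3% of all promoters did. H3K27me3 was listed at 3 of them in Zbtb11KO and at 29 in Zfp131KO, and H3K27ac at 36 in Zbtb11KO and at 16 in Zfp131KO, against the shares of all promoters given above. NELF was higher in Zbtb11KO at 37, again by listed reads without centring and without a share over all promoters. Examples, again named after their values were seen, were Tbl3, a gene of the small ribosomal subunit processome (1472 reads in Zbtb11KO, 214 in Zfp131KO, 200 in doubleKO, 2150 in WT), and the nuclear pore gene Nup214 (2648, 609, 1877 and 3998 in the same order). Pop4, a subunit gene of RNase P (1896 in Zbtb11KO and 560 in Zfp131KO), Pfas, an enzyme gene of purine synthesis (1455 and 572), and Adar, the RNA adenosine deaminase gene (2691 and 1177), were further members.

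Promoters that hold the words printed above differed little as a set. Of 10028 promoters with a RefSeq sequence, chromosome 18 left out, 327 were higher (3.26%) and 255 lower (2.54%). The 444 measured promoters with ACCGGAAG had a median log2 ratio of -0.09 with 3 higher and 15 lower, or 3.38% lower, and the 153 with AGGTTCCG had -0.08 with 3 higher and 16 lower, or 10.5% lower. The 108 with CGTCATCA had a median of 0.12 with 7 higher and 1 lower, and the 76 with TGACGTAA had 0.12 with 1 higher and none lower. Lower promoters were poorer in CG dinucleotides, with a median of 11 in the 300-base window, against 20 in higher promoters and 22 in those within 2-fold. Over all promoter stretches the lower ones also had fewer H3K4me3 reads. Their median was 270 per knockout, against 1107 at higher ones and 1876 at those within 2-fold. Whether the CG difference goes with the level of the mark was not tested.

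Chromosome X held the longest run of neighbouring promoters on one side. From 85.0 to 113.3 Mb (chrX:85048157-113298950), 87 promoter stretches in a row lay above 0, while the next longest run on any chromosome had 21. The run had a median log2 ratio of 0.98, with 42 higher and none lower, against -0.06 for the other 345 promoters of chromosome X (14 higher, 6 lower) and -0.01 for 11945 on other chromosomes (362 higher, 321 lower). The run was picked by the sign of these ratios, which fixes that none was lower and that its median was positive. That choice also bears on the contrast with other promoters and on the ratios over WT. Over WT the run had centred medians of 0.77 in Zbtb11KO, -0.30 in Zfp131KO and -0.13 in doubleKO. Separate ChIPs went the same way: the median log2 ratio between the knockouts was 1.54 for H3K27ac, above 0 at 39 of 39 promoters with a value, 2.77 for H3K27me3 (26 of 26) and 0.94 for NELF (56 of 56). H3K27me3 was also higher over the rest of chromosome X, with a median of 1.04 (44 of 50 above 0), against 0.03 on other chromosomes, whereas H3K27ac had -0.12 and NELF -0.00304 on the rest of X. A mark of active and a mark of silent promoters were thus both higher in Zbtb11KO over these promoters.

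Genes named here that lie in the run are Nhsl2 (2.06), Nono (1.61), the ribosomal protein gene Rps4x (1.09), the glycolysis gene Pgk1 (0.59), the receptor gene Eda2r (0.98), the homeobox gene Cdx4 (1.53) and the meiotic gene Tex11, where 235 reads in Zbtb11KO stood against 14 in Zfp131KO (4.35). Control reads per kb over the run were 31.4 in Zbtb11KO and 33.8 in Zfp131KO, close to the rest of chromosome X with 32.5 and 33.3. Of 79 domains with the same ends in both lists 65 had an equal control count, so the control appears largely shared and gives no check of the DNA of a line. Copy number was not tested. Without the run, 376 of 12290 promoters were higher (3.06%) and 327 lower (2.66%).

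**Figure D4:**
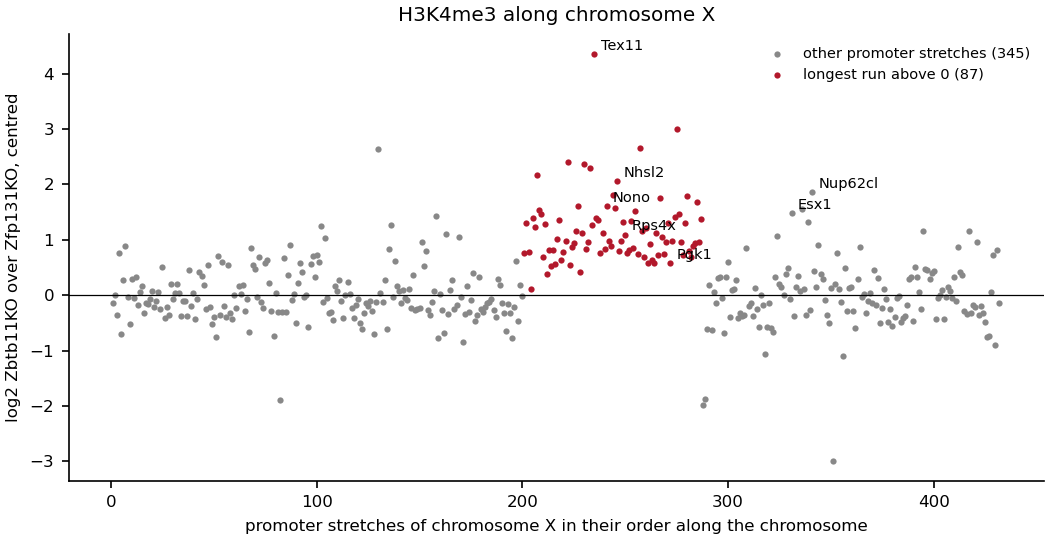
Centred log2 ratio of H3K4me3 in Zbtb11KO over Zfp131KO for the 432 promoter stretches of chromosome X in their order along the chromosome. The 87 promoters of the run (red), picked because they lie above 0 in a row, have a median of 0.98, and the other 345 (grey) scatter around -0.06.

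The other marks, measured on separate libraries of the same lines, were compared at the called promoters. The higher promoters here include 42 of the run on chromosome X. In that run H3K27ac and NELF were above 0 at every promoter with a value, called or not. H3K27ac had a median log2 ratio of 0.77 at 87 higher promoters with a value (62 above 0) and -1.40 at 55 lower ones (8 above 0), against 0.06 at all promoters. NELF had 0.57 at 154 higher promoters (135 above 0) and -0.72 at 96 lower ones (14 above 0), against 0.00 at all. The ratio of H3K27me3, which is known where both lists hold a domain, was 0.06 at higher and 0.10 at lower promoters, against 0.04 at all. Counting lists, H3K27me3 was held by 63.2% of higher promoters in Zbtb11KO and 73.4% in Zfp131KO, and by 61.5% of lower promoters in Zbtb11KO and 50.2% in Zfp131KO. At the 25 lower promoters with at least the median reads, these shares were 76.0% in Zbtb11KO and 28.0% in Zfp131KO. Promoters with a WT domain of H3K27me3 made up 60.8% of the higher and 51.1% of the lower ones, against 34.5% of all.

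By gene lists, the Hox clusters stood highest and the mitochondrial lists low. Counts are to be read against 3.22% higher and 2.55% lower among 13585 genes, whose median log2 ratio was -0.01. Of 36 Hox genes, the homeobox genes that set body-axis identity and are Polycomb targets in stem cells, 7 were higher in Zbtb11KO and none lower, 33 lay above 0 and the median was 0.57. All 36 had a WT domain of H3K27me3. Hoxd8 had 1172 reads in Zbtb11KO, 502 in Zfp131KO, 950 in doubleKO and 368 in WT (log2 1.51), Hoxc8 had 610, 278, 573 and 131 in the same order (1.42), and Hoxc9 (1.60) and Hoxa3 (1.25) had fewer reads.

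Of 74 mitochondrial ribosome genes none was higher and 6 were lower, 17 lay above 0 and the median was -0.24. ZBTB11 bound 58 of the 74, against 8266 of all 13585 genes. It bound 66 of 72 cytosolic ribosome genes, whose median was nearer to 0. Mrpl3 had 201 reads in Zbtb11KO, 1561 in Zfp131KO, 1069 in doubleKO and 1667 in WT, a log2 ratio of -2.67 (-2.89 to -2.46), with 3014 ZBTB11 reads. Mrps31 had 558, 2437, 1654 and 3090 in the same order (log2 -1.84), and Mrpl1 (-1.41), Mrpl13 (-1.37), Mrpl16 (-1.23) and Mrpl44 (-1.06) were the others. Of 34 genes of respiratory complex I, the first enzyme of the electron transport chain, 1 was lower and none higher, 6 lay above 0 and the median was -0.25. The lower one was Ndufc2, with 288 reads in Zbtb11KO, 2431 in Zfp131KO, 656 in doubleKO and 2324 in WT, a log2 ratio of -2.79 (-2.98 to -2.62) and 2300 ZBTB11 reads. H3K27me3 reads at Ndufc2 numbered 402 in Zbtb11KO, 61 in Zfp131KO and 27 in WT. The medians of the cytosolic ribosome (72 genes, -0.06) and housekeeping lists (11 genes, -0.09) lay nearer to 0.

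Of 27 pluripotency genes 4 were higher, 1 was lower and 18 lay above 0, with a median of 0.15. The homeobox gene Nanog had 3544 reads in Zbtb11KO, 1489 in Zfp131KO, 3746 in doubleKO and 6125 in WT, a log2 ratio of 1.53 (1.45 to 1.62), the reads of both single knockouts being below those of WT. In the authors' deposited table Nanog had a log2 fold change over WT of 0.50 in Zbtb11KO (SE 0.10, DESeq2 adjusted p = 7.98e-06), the other direction, and in that of Zfp131KO -1.53 (SE 1.06, DESeq2 adjusted p = 0.295). Dppa2 had 663 in Zbtb11KO, 370 in Zfp131KO, 1986 in doubleKO and 1101 in WT (1.13), Prdm14 had a log2 ratio of 1.05, Tdgf1 is given above, and Lin28a was the lower one. Pou5f1 (-0.05) and Sox2 (-0.14) had log2 ratios near 0.

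Lists of other lineages had calls in both directions or few. Of 15 primitive endoderm genes 1 was lower and none higher (median -0.29): Gata4, with 10 reads in Zbtb11KO, 213 in Zfp131KO, 1291 in doubleKO and none listed in WT (log2 -4.13), while the matrix genes Sparc (822 in Zbtb11KO, 1758 in Zfp131KO, 7273 in doubleKO, 888 in WT) and Lamb1 (1861, 3592, 10636 and 1378) were within 2-fold. Summed over this list, the H3K4me3 level in CPM of all listed reads was 844 in Zbtb11KO, 991 in Zfp131KO, 1605 in doubleKO and 598 in WT. The part of this in other results was not tested. Of 24 mesoderm and endoderm genes 3 were higher (Cdx4, Gsc with 1569 and 830 reads, and Gata2 with 1090 and 610) and 1 was lower (Wnt3, 612 in Zbtb11KO, 1722 in Zfp131KO and 649 in WT), with a median of 0.17. Of 28 neural genes 2 were higher and 2 lower, the tubulin gene Tubb3 (297 in Zbtb11KO, 1379 in Zfp131KO, 750 in WT) and Neurod1 (808, 2195 and 738 in the same order) being the lower ones, with a median of 0.08. At Wnt3 and Neurod1 Zbtb11KO was near WT and Zfp131KO stood above it.

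Among the other lists, trophectoderm (12 genes, median -0.22) had Esx1 higher and Krt7 lower. The fibroblast list (8 genes, -0.22) had Vim lower, with 1759 reads in Zbtb11KO and 4341 in Zfp131KO. The formative and primed list (14 genes, 0.06) had Fgf8 higher and Wnt8a lower, germline (15 genes, 0.39) had Tex11 higher, and imprinted genes (25 genes, -0.21) had Magel2 lower. Of p53 targets (19 genes, -0.03) the death receptor gene Fas was lower, with 89 reads in Zbtb11KO and 533 in Zfp131KO. It had 98 in WT and 650 in doubleKO, so Zbtb11KO was near WT. Immediate early genes (24, median -0.16), the integrated stress response (18, 0.01), H3K4 methyltransferase complexes (17, -0.12) and the factors of the study (14, 0.10) had no call, and the two-cell-like list had 1 measured gene, Arg2 (0.32).

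**Figure D5:**
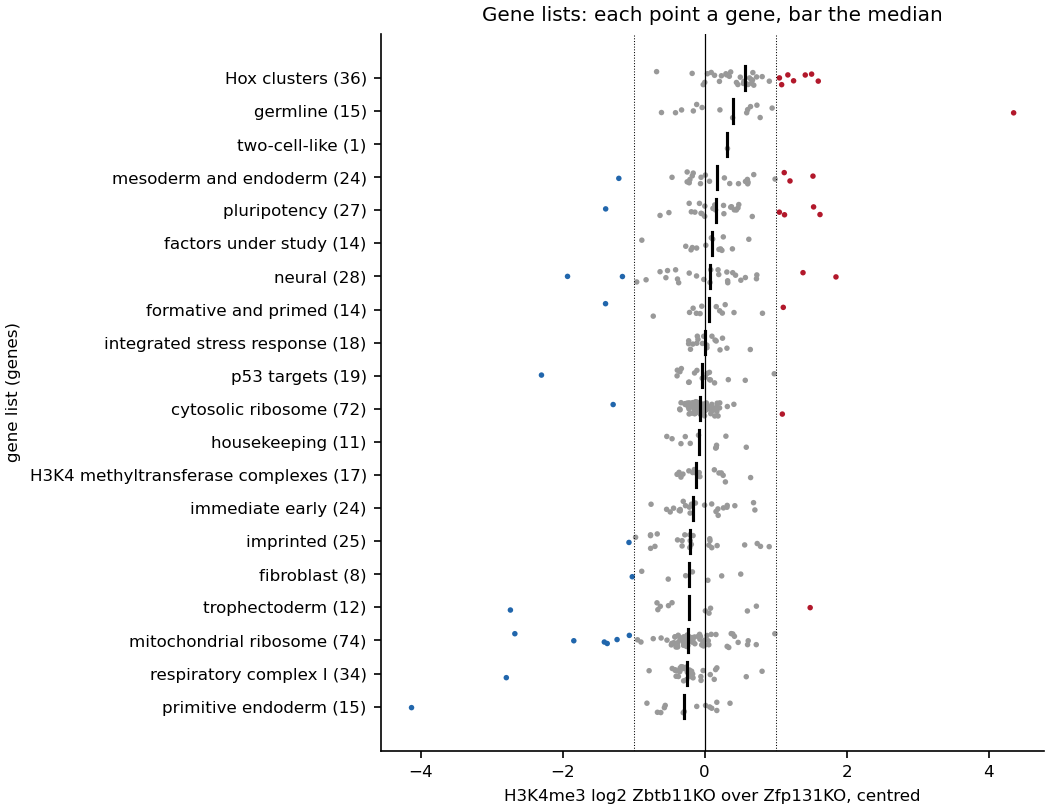
Each point is a gene of the list with its centred log2 ratio of H3K4me3 in Zbtb11KO over Zfp131KO, black bars are list medians, red and blue points are past 2-fold, and the number of measured genes is in brackets. Hox clusters stand highest with a median of 0.57, and primitive endoderm (-0.29), respiratory complex I (-0.25) and the mitochondrial ribosome (-0.24) stand lowest.

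Stretches listed in 1 knockout alone were small. There were 14440 in Zbtb11KO, with a median of 12 reads and promoters of 187 genes, and 13175 in Zfp131KO, with a median of 13 reads and promoters of 326 genes. A stretch that is not listed has fewer reads than the domain caller required, not zero. The one with the most reads was Acsf3, a gene of mitochondrial fatty acid synthesis, with 1279 reads over 945 bp in Zfp131KO, 93 in doubleKO and 1142 in WT, none listed in Zbtb11KO, and 2071 ZBTB11 binding reads. The next in Zfp131KO were the promoter of Mkks and Slx4ip (526 reads), the thromboxane receptor gene Tbxa2r (328) and the phospholipase gene Pla2g2f (269), without an event of either factor. None of these was listed in WT. In doubleKO Tbxa2r had 336 reads and Pla2g2f 110, and the promoter of Mkks was not listed. In Zbtb11KO the largest with a promoter were Tmem92 (208), AW551984 (182), the tubulin gene Tuba1b (150), which has near-identical copies, and Xaf1 (111), also without an event. WT had 18 reads at AW551984 and 20 at Xaf1, with Tmem92 and Tuba1b not listed. In doubleKO Tmem92 had 308 and Xaf1 31, with AW551984 and Tuba1b not listed.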

How the data were processed

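Per the submitters' processing notes, the study used Bowtie 1.0.1, bedtools and DESeq2 1.28.1 and the build mm10. For each histone mark the deposited files hold 1 list of domains per genotype, made by the authors from pooled replicates with DomainFinder (SEED) at p under 0.01, per the file headers. A domain carries a read count and a control count, which the authors deposited without scaling for depth, and a p-value, per the file headers. For NELF, SETD1A and the HA-tagged factors the authors ran MultiGPS, per the file headers; the signal of an event is the reads assigned to it over both replicates, beside a log2 fold over scaled control. For each knockout against WT the authors deposited a DESeq2 result with baseMean (a signal whose scaling is not stated), log2 fold change, standard error and p-value per region.

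Overlapping H3K4me3 domains of the 2 single knockouts were joined, and reads were summed per stretch. Stretches with both knockouts and at least 100 reads in all were kept, log2 ratios were centred on their median, and 2-fold was the call. A planned count model needs a value per library, which these lists do not hold. A promoter was the stretch with the most reads within 1 kb of a RefSeq gene start (11421 genes) or, where none was at hand, of the gene end with more reads (2895 genes); 14316 of 21883 protein-coding genes had one. An event within 500 bp counted as bound. H3K27ac, H3K27me3 and NELF ratios were centred likewise and needed 50 reads. Ratios over WT were centred on promoters. Intervals of a ratio are exact (Clopper-Pearson). The steps, tested on simulated data, recovered 100% of 200 stretches changed 4-fold among 22837 and called 0% of the others. The simulated reads held counting error alone on fixed stretches, without a spread between libraries or a difference in domain length. The simulation therefore gives no rate of false calls for the real lists.

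Words of 8 letters were counted in promoters on both strands, with chromosome 18 left out. Those in at least 14 of the 200 most bound promoters were ranked by their ratio to unbound promoters. The ranking covered 10028 promoters matched to a RefSeq sequence. By rule the text names the 12 genes with the largest and smallest ratios among called promoters at or above the median reads, the deleted genes, up to 4 members of each of 20 lists, the 6 most bound promoters of each factor, and the 4 largest stretches listed in 1 knockout alone; exceptions are marked, and some items are not reported here. The members and lists were chosen with earlier results of these data known. Alternatives covered centring, count minimum, fold, domain threshold, joining, reads per kb, promoter window, binding distance and the source of the ratio. Lists of CHD4, SIN3A, polymerase II and doubleKO NELF, and the authors' NELF tables, were not used here. Analyses ran in Python 3.11.15 with pandas 2.3.3, numpy 2.4.6, scipy 1.17.1 and matplotlib 3.10.9.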

Additional observations from a re-analysis of the deposited data

How the results depend on the processing

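No paired analysis was possible because the deposited lists pool both replicates and give no value per library; for the same reason no library was left out. The ratios carry counting error and an unknown spread between libraries, and stretches with the fewest reads per kb passed 2-fold most often (60.4% in the lowest of 10 classes).

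The share of all shared stretches past 2-fold, 7.48% higher and 7.27% lower in Zbtb11KO, became 4.71% and 11.1% without centring, 16.9% and 13.8% at 1.5-fold, 3.14% and 3.67% at 3-fold, 2.45% and 0.836% as reads per kb of listed domain, and 25.9% and 15.2% as the difference of the authors' deposited tables, which runs with the level of the mark in Zbtb11KO. With a minimum of 200 reads 4.33% were lower. Centring on total reads, by level class or by chromosome, a minimum of 50 reads or none, domains of p under 1e-05 and other joining kept both shares within 1.5 times.

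The following alternatives on promoters were in part chosen after seeing the data. As reads per kb, 1.83% of promoters were higher and 0.695% lower. Joining domains within 500 bp left 4660 stretches in Zbtb11KO alone and 5580 in Zfp131KO alone. With events above the median number of reads, log2 medians over all stretches were 0.00588 for both factors, -0.0602 for ZBTB11 alone and 0.0188 for neither, and over promoters 0.00675, -0.0568 and 0.0164, the last with its sign turned. Centring within level classes gave 0.0228 for both factors and 0.0184 for neither over all stretches, and 0.0234 for both and -0.0316 for ZBTB11 alone over promoters.

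By rank of binding, reads per kb gave -0.45 and -0.28 at ZBTB11 ranks 51 to 200 and 201 to 500, and turned the sign at ZFP131 (-0.0284, -0.0036 and -0.12 for ranks 1 to 50, 51 to 200 and 201 to 500), the median of all promoters being -0.07 on that scale. Without promoters that the other factor binds, ZFP131 ranks 1 to 50 had 0.0164 (6 promoters) and ranks 51 to 200 had 0.40 (51 promoters). As reads per kb, list medians were 0.21 for Hox clusters, -0.42 for the mitochondrial ribosome, -0.36 for complex I, -0.19 for the cytosolic ribosome and -0.0698 for Arg2, the 1 two-cell-like gene, which had 0.30 by level class and 0.32 with domains of all 4 genotypes joined.

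Of 121 named genes, 120 kept their side of 2-fold by level class, 119 with domains of all 4 genotypes joined and 97 as reads per kb. Signs turned for Ppp4r3a by level class (-0.0857) and per kb (-0.24), for Pax6 with joined domains (-0.60), and per kb for Gata4 (0.0792) and Arg2. The cause was not tested.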

Other observations

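The next longest runs of neighbouring promoters on one side held clustered gene families, and are given as values seen after the data. These runs too were picked by the sign of the ratio. On chromosome 18, from 37668751 to 37956521, 21 promoter stretches in a row lay below 0 with a median log2 ratio of -0.51. They hold 20 genes of the gamma protocadherins, adhesion proteins that give neurons their identity. Pcdhga12 had 869 H3K4me3 reads in Zbtb11KO, 2275 in Zfp131KO, 3677 in doubleKO and 1228 in WT, and Pcdhga10 had 437 in Zbtb11KO, 1033 in Zfp131KO, 1688 in doubleKO and 485 in WT. Zfp131KO and doubleKO had the higher reads at both genes, and Zbtb11KO and WT the lower ones.

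On chromosome 17, from 20944481 to 22424850, 20 promoter stretches in a row lay below 0 with a median of -0.42, and of 22 genes there 21 had Zfp or Gm symbols, given to zinc finger and predicted genes. Such genes have near-identical copies, and reads may be shared between them. On chromosome 11, from 96003209 to 96791069, 17 promoter stretches lay above 0 with a median of 0.47, and 9 of their 17 genes were Hoxb genes. Runs on chromosome 15 (18 stretches, median -0.39) and chromosome 5 (18 stretches, 0.46) held genes of mixed kinds.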
